A study of Caenorhabditis elegans with 4 samples.

Results

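Closely spaced binding regions of the transcription factor ELT-3 in C. elegans embryos are described here. ELT-3 peaks were chosen by their positions in the combined peak list alone: a peak is a member when its midpoint lies 2000 bp or less from the midpoint of another peak on the same chromosome. Of the 3936 peaks in the combined list, 923 (23.5%, 95% Wilson interval 22.2 to 24.8) were members, and 3013 were not. Chained by the same limit, the members formed 417 clusters. Distances, cluster sizes and the numbers per chromosome follow from this rule and are given as a description, with no test.

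The data came from 4 samples, 2 ChIP and 2 input libraries, all from embryos of strain OP75 grown at 20 °C, in a population of males and hermaphrodites. The strain carries unc-119 (ed3) on chromosome III and the transgene wgIs75, which holds elt-3::TY1::EGFP::FLAG together with unc-119 (+), and the labels name no mutation of its own elt-3 gene. Chromatin was crosslinked with 2% formaldehyde, and the tagged factor was collected with a goat antibody against GFP. Input DNA was taken from 10% of each lysate and has no peak list of its own. Whole embryos were used, so a weaker region and a region bound in fewer cells cannot be told apart.

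ELT-3 is a GATA factor, a zinc finger protein that recognises short DNA sites with GATA at their core. In the worm it is known as a regulator of the epidermis (hypodermis), where it acts after the GATA factor ELT-1 that sets epidermal fate. Regulatory DNA often holds several sites for one factor close together, and in ChIP-seq such sites appear either as separate neighbouring peaks or as a single wide peak, depending on the length of the sonicated fragments and on how the peak caller joins regions.

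Each peak has a single deposited number, a q-value, and the tag numbers used here were derived from it. Every value in all 3 lists matched exactly 1 binomial tail of ChIP tags against control tags, and this number is called the peak probability. The ChIP to control tag ratio is the number of ChIP tags in a peak divided by the control tags there. Whether and how the control was scaled to the ChIP library is not stated in the files. The 95% exact binomial intervals given with it reflect counting error alone, with the control treated as an unscaled count. The combined list held 334408 ChIP tags against 120447 control tags in its peaks, and the members held 26.2% of those ChIP tags, 26.6% of the control tags and 26.6% of the peak length. The total depth of each library is unknown. Of the 923 members, 631 (68.4%) had the same start, end, ChIP tags and control tags in the replicate 2 list, as did 2090 of the 3013 remaining peaks (69.4%), so replicate 2 is no separate measurement of either set. The shorter replicate 1 list, with 1667 peaks, is therefore the one set beside the members. Nothing in the labels tells if both ChIP samples were grown as separate cultures, and peaks are not replicates, so members and remaining peaks are set side by side without a p-value.

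Most clusters were simple pairs. There were 346 clusters of 2 peaks, 55 of 3, 14 of 4 and 2 of 5. Clusters of 2 spanned a median of 1633 bp from first to last base, clusters of 3 spanned 2922 bp and clusters of 4 spanned 3960 bp. The 506 pairs of neighbours within the limit had midpoints from 282 to 1986.5 bp apart, with a median of 1264 bp. The gap between their facing edges ranged from 200 to 1868 bp, with a median of 867 bp. No 2 peaks of the combined list or of replicate 2 lay nearer than 200 bp edge to edge, and in replicate 1 the smallest gap was 202 bp. Over all neighbouring pairs, the count of edge gaps was highest just above that floor, with 52 pairs from 200 to under 300 bp, against 45 in the next 100 bp and 33 in the 100 bp after that. No 2 members therefore lay nearer edge to edge than this floor. Whether a single peak holds several sites was not examined. How regions nearer than the floor were treated in the lists is not given in the sources used here.

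**Figure D1:**
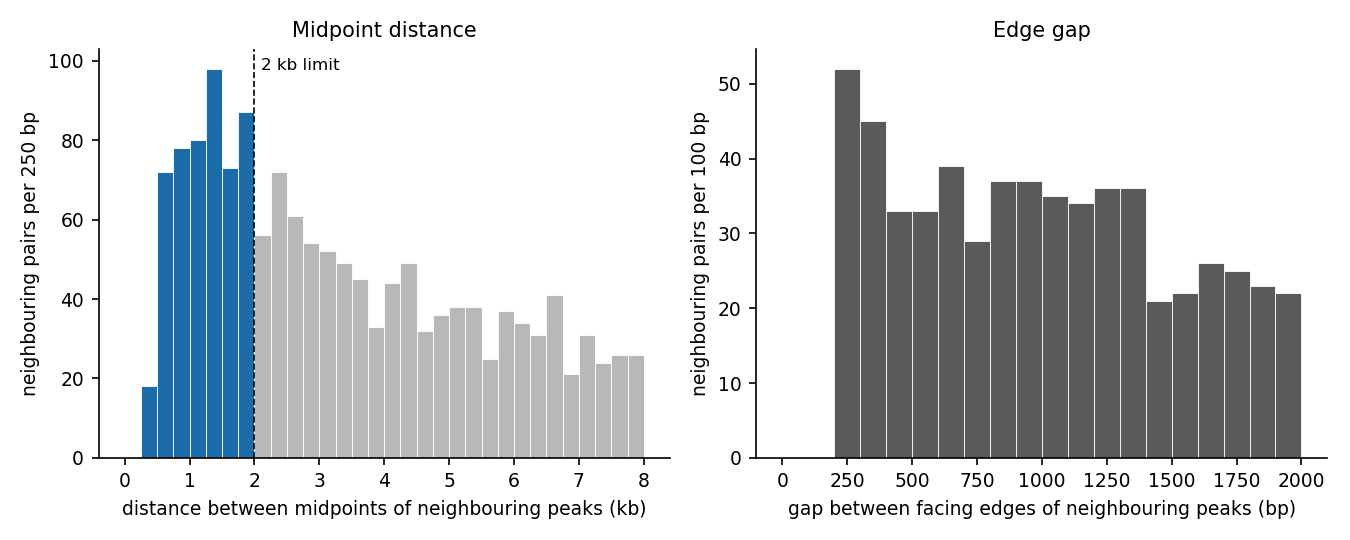
Number of neighbouring peak pairs of the combined list by the distance between midpoints in kb (left, up to 8 kb, pairs within the 2 kb limit in blue) and by the gap between facing edges in bp (right, up to 2000 bp, all pairs). No edge gap is under 200 bp, and the fullest bar on the right holds the 52 pairs from 200 to under 300 bp.

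The closest pair by midpoint lay on chromosome III, at 5080862 to 5080927 and 5081128 to 5081225, with midpoints 282 bp apart and an edge gap of 200 bp. Its tag ratios were 3.40 (95% interval 1.64 to 7.72) and 3.17 (1.62 to 6.66), from 34 and 38 ChIP tags. On V, the peaks at 11540842 to 11540874 and 11541136 to 11541153 followed, 286.5 bp apart, with ratios of 5.17 (2.12 to 15.1) and 4.83 (1.97 to 14.2). The next pair, on IV at 4247407 to 4247569 and 4247826 to 4247852, had midpoints 351 bp apart and ratios of 3.07 (1.65 to 6.08) and 9.67 (3.00 to 49.6). All 6 of these peaks were narrow, from 18 to 163 bp wide, and none overlapped a replicate 1 peak. With no edge gap under 200 bp, midpoints this close leave room for narrow peaks only. Peaks of 195 bp or less were seldom found in replicate 1 in either set (9.04% of members, 13.7% of remaining peaks). At the other end of the rule, the widest-set members were at I 9330812 to 9331085 and I 9332408 to 9333462, 1986.5 bp apart, with ratios of 2.14 and 4.19. The nearest peaks outside it, at I 3679756 to 3680374 and I 3681891 to 3682242, were 2001.5 bp apart, with ratios of 2.23 and 2.11.

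Closely spaced peaks were found on all 6 chromosomes, in unequal shares. They made up 29.1% of the peaks on II (95% Wilson interval 25.7 to 32.7) and 27.7% on III (24.5 to 31.2). The shares were 24.3% on I (21.2 to 27.6), 22.1% on IV (19.0 to 25.5), 19.8% on X (16.9 to 22.9) and 17.5% on V (14.8 to 20.6). Neighbours in this order had overlapping intervals, while those of II and III lay above those of V and X. These intervals take peaks as independent, which members of a cluster are not. Peak density also differed: III had 49.0 peaks per Mb up to its last peak, II 42.6 and V 30.6, while I had 45.7 and a lower share than II. Its part in these shares was not tested. The same rule gave lower shares in the shorter replicate 1 list, from 8.71% on V to 17.8% on II, with III at 16.7% and IV at 16.7%. Per Mb up to the last peak, III carried 13.6 members and V 5.36.

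**Figure D2:**
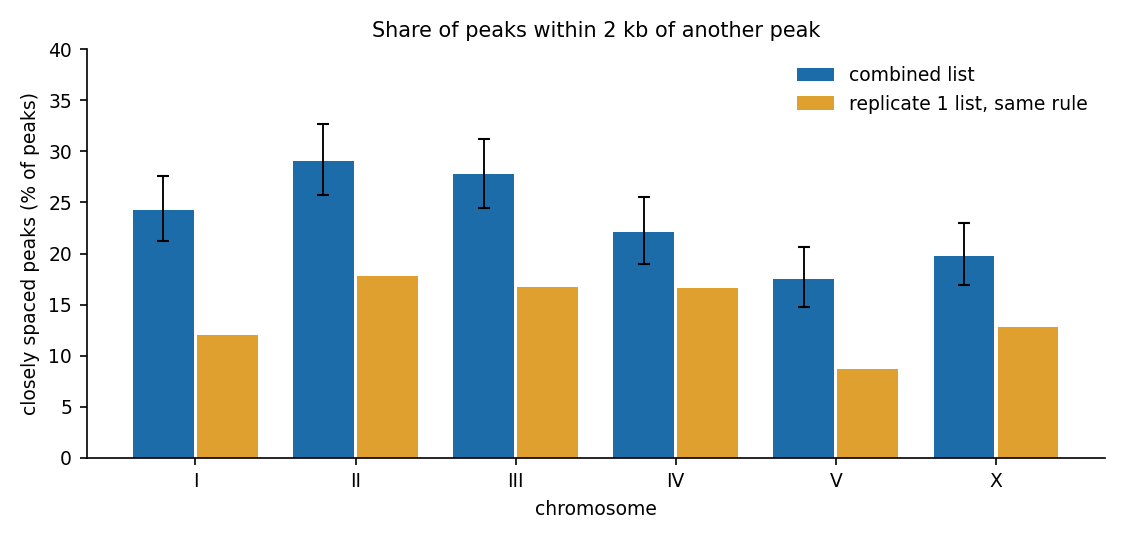
Share of peaks that lie within 2 kb of another peak (% of the peaks of each chromosome) in the combined list (blue, with 95% Wilson intervals) and in the replicate 1 list under the same rule (orange, no interval drawn). II has the highest share and V the lowest in both lists.

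Along the chromosomes, members lay toward the centre more often than the remaining peaks. Of 3 equal parts of each chromosome, measured to its last peak, the middle one contained 418 of 923 members (45.3%, Wilson 42.1 to 48.5) and 1148 of 3013 remaining peaks (38.1%, 36.4 to 39.8). On the autosomes the shares were 45.9% and 39.4%, and on X 41.7% and 31.9%. The share of members was higher on 5 of the 6 chromosomes, and on IV it was 39.7% against 39.8%. The density of all peaks along the chromosome also varied, and its part in this position was not tested. The 1 Mb bin with the most members was III between 4 and 5 Mb, where 29 of 69 peaks were members. It was followed by I between 7 and 8 Mb with 27 of 79, and by III between 7 and 8 Mb with 26 of 60. Of the 102 bins that held any peak, 9 held no member, and the median was 8 members.

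Members were wider than the remaining peaks. Their median width was 306 bp (quartiles 207 and 439) against 259 bp (192 and 362), and it was larger on every chromosome, by 312 against 253 bp on II, 290 against 234 bp on III and 306 against 283 bp on I. They held a median of 80 ChIP tags against 68, and 30 control tags against 24. Per kb of peak the ChIP tags were nearly the same, with medians of 272 and 273, and the control tags were 99.4 and 96.4. The median tag ratio was 2.78 (quartiles 2.36 and 3.31) in members and 2.87 (2.43 and 3.57) in the others, and it was lower in members on all 6 chromosomes. Both distributions overlapped over most of their range. Members ranked somewhat better by peak probability, with a median rank of 1770 against 2034, since the probability improves with tag number as well as with the ratio. They made up 28.2% of the best-ranked of 5 equal rank groups and 19.7% of the last.

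How often a region was also called in replicate 1 was read next. Of the 923 members, 407 (44.1%, Wilson 40.9 to 47.3) overlapped a replicate 1 peak by at least 1 bp, as did 1205 of the 3013 remaining peaks (39.99%, 38.3 to 41.8). Over all combined peaks the share was 41.0%, which lies just inside the members' interval. Width differed between the sets and moved with this share, so both were also read within 4 width groups of nearly equal size. Among the widest peaks, 381 bp or more, 70.5% of 319 members and 70.8% of 662 remaining peaks were found in replicate 1. Among peaks of 270 to 380 bp the shares were 47.1% and 48.4%, among those of 196 to 269 bp 29.7% and 33.0%, and among those of 195 bp or less 9.04% and 13.7%. Members were thus slightly below the remaining peaks in each of the 4 width groups, though above them when all widths were counted together. The widest group held 34.6% of the members and 22.0% of the remaining peaks. The median tag ratio of members stayed below that of the remaining peaks in each group, at 2.62 and 2.63 in the widest, 2.65 and 2.66 in the next, 2.76 and 2.78 in the one after, and 3.36 and 3.46 among the narrowest. On the log2 scale the difference among the narrowest, -0.041, was close to the -0.047 over all widths, and it was smaller in the other 3 groups. Grouping by width was chosen after the values had been seen.

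**Figure D3:**
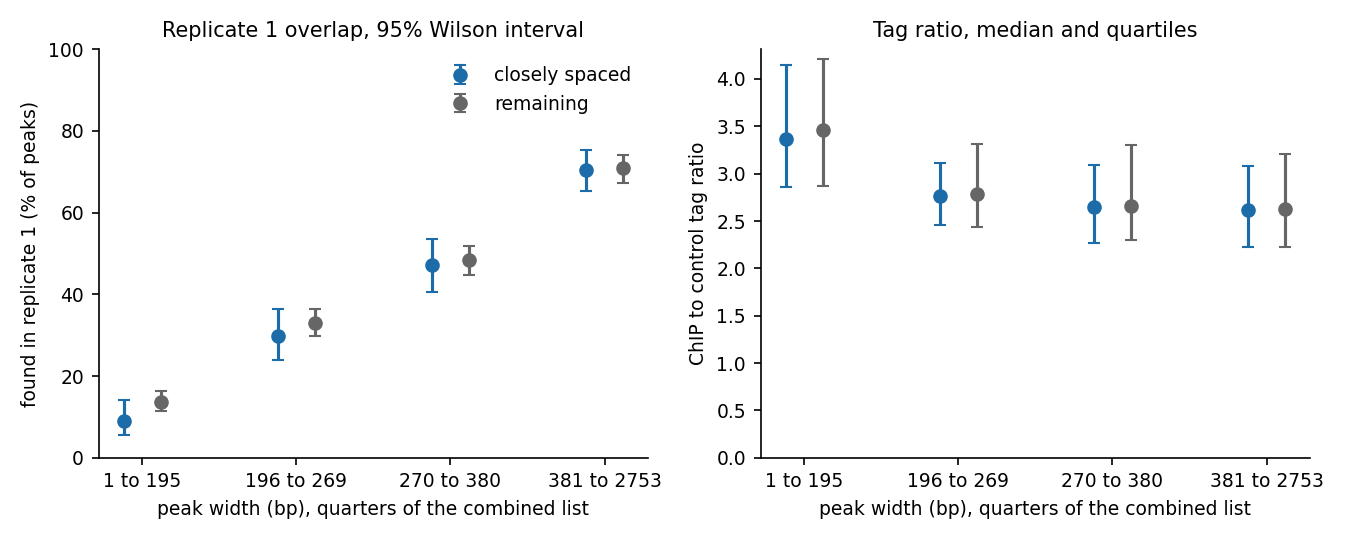
Closely spaced peaks (blue) and remaining peaks (grey) in 4 groups of peak width. Left, share of peaks that overlap a replicate 1 peak, in %, with 95% Wilson intervals; right, ChIP to control tag ratio, median and quartiles. In every width group the blue and grey points lie close together, from 9.04% and 13.7% among the narrowest peaks to 70.5% and 70.8% among the widest.

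The share found in replicate 1 also differed with spacing among the members. It was 30.6% of 36 peaks whose nearest neighbour lay within 500 bp (Wilson 18.0 to 46.9), 39.6% of 285 between 500 and 1000 bp, 44.0% of 323 between 1000 and 1500 bp and 50.5% of 279 between 1500 and 2000 bp (44.7 to 56.4). Beyond the limit, between 2000 and 3000 bp, it was 41.4% of 379. Median widths in the same order were 200, 305, 314, 323 and 270 bp, and the part of width in these shares was not tested.

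Whether the split into separate peaks was also made in the list of each sample was asked per cluster. In replicate 1, 105 of 417 clusters (25.2%) had 2 or more members that overlapped separate peaks, 188 (45.1%) had 1 member found and 124 (29.7%) had none. In no cluster were members joined under 1 replicate 1 peak. In 74 clusters all members were found. In replicate 2, 401 clusters (96.2%) were kept apart, 12 had 1 member found and 4 had 2 members joined. The 4 joined pairs had edge gaps of 202, 206, 213 and 215 bp in the combined list, just above the smallest gap that occurs. One of them was at II 5335858 to 5337364, where replicate 2 had 1 peak of 1579 bp with a ratio of 2.19 in place of 2 peaks. The others were at III 9765324 to 9766388, IV 13394714 to 13395581 and X 5781707 to 5782427, with joined ratios of 2.72, 2.56 and 2.33. The reverse also occurred: 5 members and 11 remaining peaks each overlapped 2 replicate 1 peaks. The widest member, at IV 14610400 to 14612931 (2532 bp, ratio 2.62, 95% interval 2.17 to 3.18), was one of the 5. Of the 237 replicate 1 peaks that were closely spaced by the same rule, 203 (85.7%) overlapped a member of the combined list. Since 234 of the 237 overlapped some combined peak, this share follows largely from the rule. The share over all replicate 1 peaks is not given here.

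Within the 346 pairs, the member with more ChIP tags held a median of 61.6% of the pair's ChIP tags, and over 75% in 41 pairs. The better-scoring member was the wider in 269 pairs (77.7%) and had the higher tag ratio in 213 (61.6%). Its median width was 368.5 bp against 231 bp, and its median ratio 2.93 against 2.69. It came first along the chromosome in 161 pairs (46.5%). In the 55 clusters of 3, the best-scoring peak was the first in 18, the middle in 19 and the last in 18. Both members of a pair were found in replicate 1 in 67 pairs (19.4%), neither in 109 (31.5%), and 1 of them in 170 (49.1%). Over all 3930 neighbouring pairs of the list these shares were 16.7%, 34.8% and 48.4%, so the clusters of 2 stood near that background. Where 1 was found it was the better-scoring member in 156 of the 170. For the tag shares and the counts by score no background over all neighbouring pairs is given, so they describe these clusters alone.

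The next comparison asked whether neighbours differed in tag ratio by more than counting error, with the control again treated as an unscaled count. If the control was scaled, the p-values do not measure counting error exactly. Fisher's exact test, two-sided, was applied to the ChIP and control tags of each of the 3930 neighbouring pairs of the combined list, with Benjamini-Hochberg adjustment over all of them. It called 4 of the 506 pairs within 2 kb (0.791%), and 22 of all 3930 pairs (0.560%), so close pairs stood near the background. Unadjusted p-values under 0.05 were found in 39 close pairs (7.71%) and in 6.03% of all pairs. The median difference between close neighbours was 0.33 on the log2 scale, a 1.25-fold difference, against 0.34 for neighbours over 2 kb apart. In 395 close pairs (78.1%) the ratios differed by less than 1.5-fold, as in 72.7% of the pairs farther apart. Tag ratios of neighbours had a Spearman correlation of 0.15 across the 506 close pairs and 0.12 across the 3424 others, and control tags per kb had 0.27 and 0.25. These correlations are descriptive, since neighbours share a library and the local control. The test of so few tags finds only large differences: the called pairs differed 2.06- to 4.32-fold, and 28 pairs that were not called differed 2-fold or more. The largest of these was 3.46-fold, at I 10806828 to 10806843 and I 10807143 to 10807916, where the narrower peak had 31 ChIP tags and 4 control tags (Fisher's exact test, adjusted p = 0.602).

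**Figure D4:**
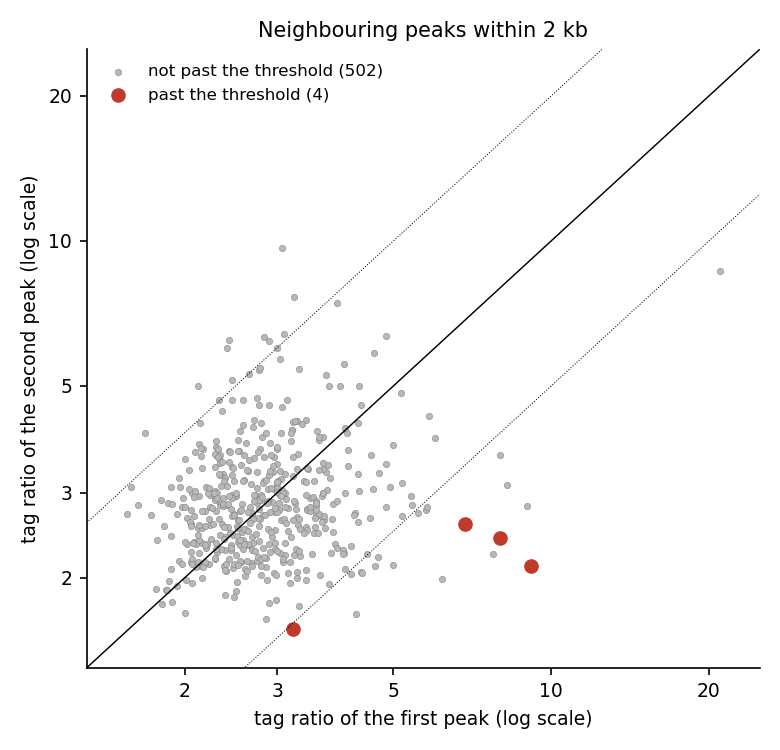
ChIP to control tag ratio of the first and the second peak, in order along the chromosome, of the 506 neighbouring pairs within 2 kb (log axes). The solid line marks equal ratios and the dotted lines a 2-fold difference; the 4 pairs past the threshold of Fisher's exact test are in red, and in each of them the first peak has the higher ratio.

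The 4 called pairs each joined a high ratio to a low one. At I 6843238 to 6843669 a peak of 432 bp had a ratio of 9.14 (95% interval 6.47 to 13.3), and 657 bp after its end a peak of 1207 bp, at I 6844327 to 6845533, had a ratio of 2.12 (1.72 to 2.62). The difference was 4.32-fold (Fisher's exact test, adjusted p = 7.06e-11). In replicate 1 the peaks overlapping these had ratios of 8.58 and 2.86, a 3.00-fold difference whose unadjusted p was 0.000556 and whose adjusted p over that list was 0.132 (Fisher's exact test). At X 11093649 to 11094461 lay the best-scoring member, whose ratio was 7.98 (5.92 to 10.97). Its neighbour at X 11095426 to 11095749 had 2.42 (1.62 to 3.67; Fisher's exact test, adjusted p = 0.00126) and was not found in replicate 1.

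At X 9465476 to 9466175 the ratio was 6.85 (5.12 to 9.32), against 2.59 (1.79 to 3.80) at X 9467580 to 9467921 (Fisher's exact test, adjusted p = 0.0112). Replicate 1 gave 6.06 and 2.76 there, a difference that did not pass (adjusted p = 0.805, Fisher's exact test). The last called pair was at I 8974944 to 8976048, with 3.21 (2.49 to 4.18), and I 8976663 to 8977943, with 1.56 (1.27 to 1.93; Fisher's exact test, adjusted p = 0.00281). In the replicate 1 list, 0 of 126 close pairs and 4 of all 1661 pairs were called. The pairs next in order did not pass in the combined list. On X, 4.16 (3.19 to 5.48) at 6741519 to 6742400 stood beside 2.04 (1.44 to 2.92) at 6742809 to 6743143 (Fisher's exact test, adjusted p = 0.170). On II, 2.43 (1.54 to 3.92) at 7287162 to 7287426 stood beside 6.23 (3.95 to 10.3) at 7287684 to 7288060 (adjusted p = 0.289, Fisher's exact test).

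Order within a pair mostly carried over to replicate 1. In 98 close pairs each member overlapped 1 replicate 1 peak of its own, and the same member had the higher ratio in 86 of them (87.8%). Among the 28 of these pairs whose log2 ratios differed by 0.5 or more, the order was the same in 28. Whether the lists share tags is not stated in the sources used here, so this is not a count over independent samples. The same count for pairs over 2 kb apart is not given, so the share is not shown to be particular to close pairs.

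In some pairs both members scored well. The 6 pairs of this kind, ordered by the peak probability of the weaker member, were found in replicate 1 at both positions. They were chosen by score, and well-scoring peaks were often found there in both sets. In the better-scoring 50% of the list, 72.0% of members and 71.3% of remaining peaks were found. No share for pairs of like score farther apart is given, so this is not shown to be particular to close pairs. The first was at III 1681030 to 1681429, with a ratio of 3.90 (2.75 to 5.64), and III 1682292 to 1682638, with 7.44 (4.53 to 12.9). Replicate 1 gave 4.87 and 7 there. Chromosome III held 2 more of the 6. At III 833591 to 834148 and III 834951 to 836282 the ratios were 3.00 (2.24 to 4.07) and 3.07 (2.47 to 3.86), against 3.03 and 3.10 in replicate 1. At III 8799839 to 8800876 and III 8801591 to 8802282 they were 2.46 (1.94 to 3.14) and 3.26 (2.51 to 4.28), against 2.50 and 3.02. On X, 6736196 to 6736744 had 2.86 (2.15 to 3.85) and 6737315 to 6737947 had 4 (3.03 to 5.35), against 2.82 and 3.70 in replicate 1. On V, 6246323 to 6246943 had 3.61 (2.70 to 4.87) and 6247402 to 6247873 had 3.35 (2.39 to 4.76), against 3.43 and 3.14. The remaining pair was that at I 6843238, given above. Within each of these pairs but the one on I, the adjusted test of Fisher called no difference.

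The largest clusters held 5 peaks each. The cluster at V 12349395 to 12355034 spanned 5640 bp. Its ratios, in order, were 3.78 (2.37 to 6.28), 3.21 (1.73 to 6.34), 2.63 (1.71 to 4.15), 3.35 (2.01 to 5.83) and 4.16 (3.09 to 5.70). The first and the last were found in replicate 1, with ratios of 3.50 and 4.22, and the 3 between them were not. The other cluster of 5, at I 10404946 to 10409770, spanned 4825 bp. There the ratios were 2.58 (1.70 to 3.98), 2.49 (1.68 to 3.75), 1.83 (1.41 to 2.38), 2.56 (1.59 to 4.24) and 2.36 (1.41 to 4.09), and none of its peaks was found in replicate 1. All intervals overlapped within each of these 2 clusters.

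The 14 clusters of 4 were on II (5), X (5), V (2), III (1) and IV (1), and those described next were chosen after their values had been seen. At II 5335858 to 5339031 the 4 peaks spanned 3174 bp, with edge gaps from 202 to 332 bp that came to 755 bp together. Its ratios were 2.19 (1.65 to 2.94), 2.31 (1.65 to 3.26), 2.30 (1.73 to 3.10) and 2.26 (1.41 to 3.70), the narrowest range of any cluster of 4 or more, and replicate 1 held the first 2. At III 8982193 to 8987130 the ratio was 6.19 (4.10 to 9.67) in the last peak and 3.11, 2.8 and 2.90 in the 3 before it. The cluster at X 6741519 to 6744768 had ratios of 4.16, 2.04, 3.05 and 2.96, with the first and the third in replicate 1. That at II 7055663 to 7061309 was the longest of all clusters, 5647 bp, with ratios of 2.70, 2.36, 3.28 and 2.06. Of the 66 peaks in the 16 clusters of 4 or more, 23 (34.8%) were found in replicate 1, against 41.0% of all peaks. Counted over clusters of 3 or more, 103 of 231 members (44.6%) were found, and over clusters of 2 it was 304 members (43.9%). The observed share was thus lower in clusters of 4 or more, but not when clusters of 3 were counted with them. It rests on 66 peaks that are not independent, with no interval computed, so a real difference is not shown. Median width was 337 bp in clusters of 3 or more and 296.5 bp in clusters of 2, and its part was not tested. In 12 of the 16 clusters of 4 or more at least 1 peak was found, and in none were all. The same counts for groups of as many remaining peaks are not given, so these describe the large clusters alone.

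**Figure D5:**
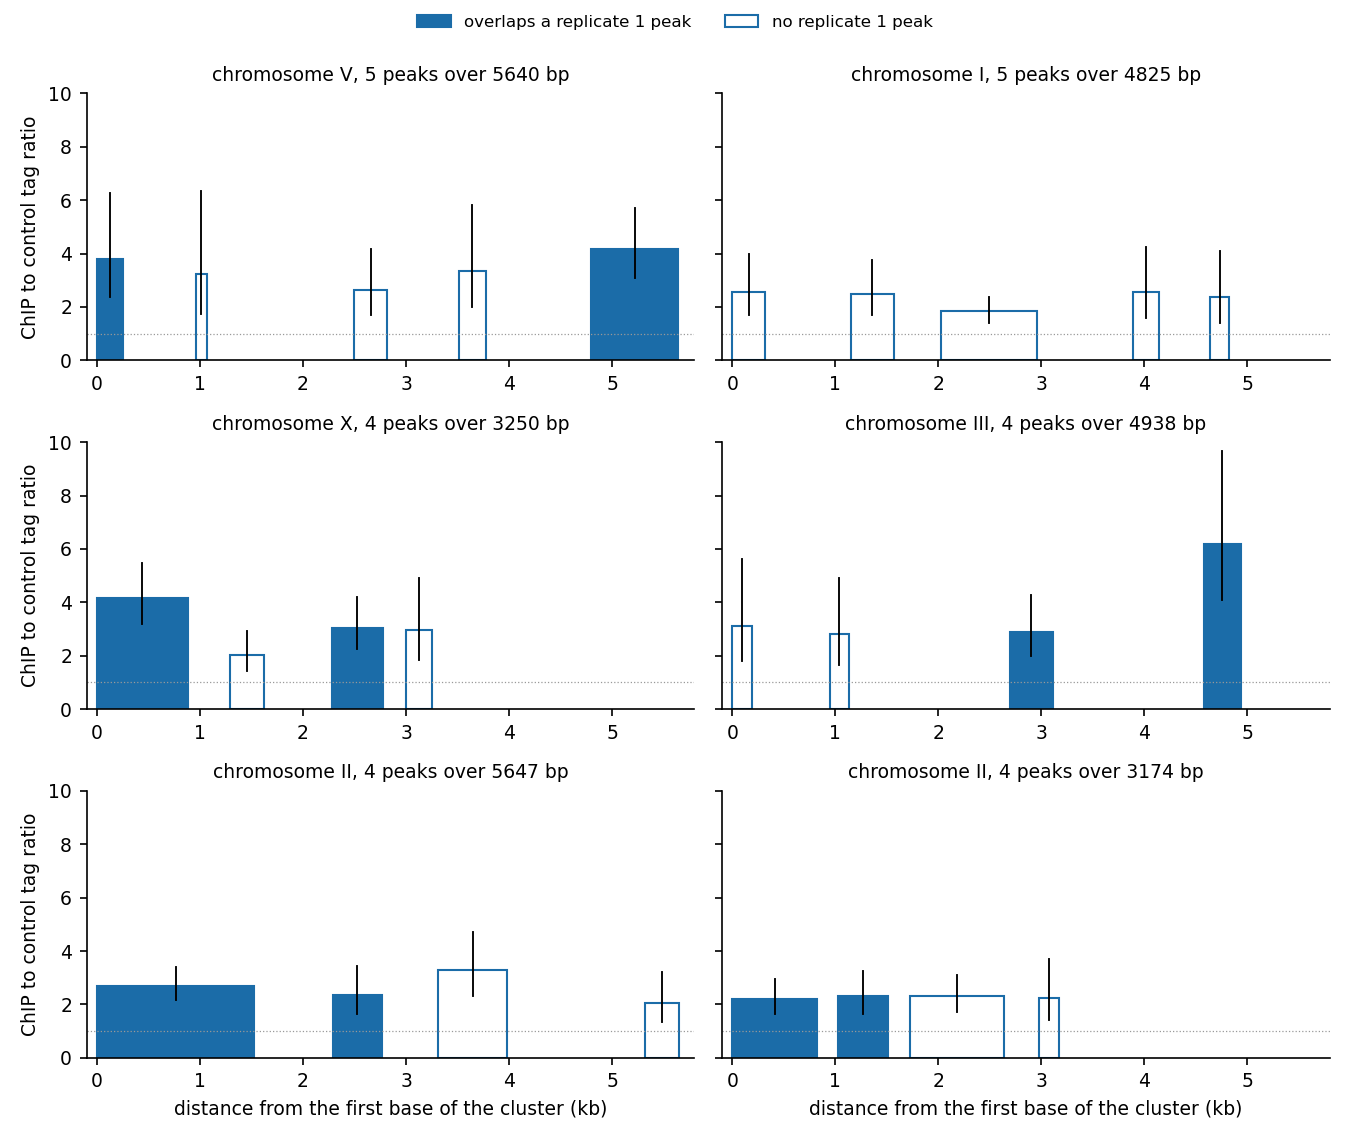
Both clusters of 5 peaks and 4 of the clusters of 4, drawn from the first base of each cluster (x axis, kb). Each bar is a peak at its width, its height is the ChIP to control tag ratio, the vertical line is the 95% exact interval, the dotted line marks a ratio of 1, and filled bars overlap a replicate 1 peak. In both clusters of 5 the intervals overlap, and in the III cluster the last peak reaches 6.19.

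Narrow members rested on few tags. There were 41 members under 50 bp (4.44%, against 4.88% of the remaining peaks), with a median ratio of 4.67 from a median of 29 ChIP tags, and 4 of them were found in replicate 1. Their nearest neighbour had a median width of 331 bp, scored better in 37 of 41 cases and was found in replicate 1 in 20. The largest peak probability in the list was 0.000321, which a peak of so few tags reaches only with a high ratio. High ratios among them are therefore partly fixed by that limit. The part of tag number in their poorer scores was not tested. The same values for the 147 remaining peaks under 50 bp are not given here. The highest ratio of all members, 21.0 (3.38 to 868), belonged to a peak just above that width at IV 16863645 to 16863696, 52 bp wide with 21 ChIP tags and 1 control tag, so its value is barely bounded from above. The lowest, 1.55 (1.21 to 2.00), was at III 12614638 to 12615656, from 166 ChIP tags and 107 control tags.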

How the data were processed

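The 3 peak lists used were 1 for each ChIP sample and 1 combined. Positions refer to WormBase release WS180, per the file headers, and PeakSeq is named as the caller in the deposited source column. For the aligner, the settings and threshold of the caller and the making of the combined list, the sources used here give nothing. The authors deposited 1 value per peak, named qValue, whose sizes match an unadjusted p-value. It was matched to binomial tails with probability 0.5, for totals of up to 3000 tags and then up to 20000, at a relative tolerance of 1e-11. The matched pair gave the ChIP tag and control tag counts. Overlap needed at least 1 bp. Clusters, medians, Wilson and exact intervals and Fisher's exact tests with a threshold of 0.05 were computed with Python 3.11.15, numpy 2.4.6, pandas 2.3.3 and scipy 1.17.1, and tested on simulated data; figures used matplotlib 3.10.9.

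Members, rules and lists were chosen with earlier results of these data known. Positions were named by rule: clusters of 5 or more, the 6 pairs whose weaker member scored best, the 6 close pairs of smallest p, the 3 closest pairs, and 2 peaks on each side of the limit. Clusters of 4, joined or split peaks, extremes and the largest difference not called were named after their values were seen. Genes, sequences and GATA motifs were not analysed here, because no genome of the WS180 build was used, and coordinates were not moved between builds. The input libraries enter only through the control tags. ChIP and input were assigned from the sample titles, since the description fields of the labels have them the other way round.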

Additional observations from a re-analysis of the deposited data

How the results depend on the processing

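Of 61 results under alternatives, 32 kept their direction and stayed within their interval or within 1.5 times. The setting without replicate 1 is the replicate 2 list, which shares most of its peaks with the combined list. Every result under that setting was among the 32, and this agreement was largely fixed in advance. The share of closely spaced peaks is set by the rule: it was 8.16% with 1000 bp, 40.2% with 4000 bp, 26.4% with 2000 bp between edges, 15.4% in the better-scoring 50% of the list, and 14.2% to 23.2% without replicate 1 or 2. The share of members found in replicate 1 was 40.6% with a reciprocal overlap of 50%, 40.3% with midpoints within 100 bp and 72.0% in the better-scoring 50%, where the remaining peaks had 36.4%, 36.9% and 71.3%. With 1000 bp it was 38.6%, below the remaining peaks (41.2%). Within the 4 width groups, added after the data were seen, members minus remaining was -4.68, -3.25, -1.24 and -0.31 percentage points from narrowest to widest, against 4.10 over all widths. Members were 23 bp wider with 1000 bp, against 47 bp. Their log2 tag ratio differed by -0.0031 with 1000 bp and -0.086 in the better-scoring 50%, against -0.047, and by -0.011, -0.0016 and -0.0061 in the 3 wider groups. Control tags per kb differed by 4.44 in the better-scoring 50%, and by 10.1, 4.99 and 1.95 in the narrowest and the 2 widest groups, against 2.95. Called close pairs numbered 0 with 1000 bp and 0 to 4 without replicate 1 or 2. The middle 50% of each chromosome held 64.8% of members and 57.1% of the others. No paired analysis was possible because each list already sets ChIP against control and inputs carry no list. Causes of these shifts were not tested. The GATA motif share was not run, for want of WS180 sequence. Members under 50 bp rest on a median of 29 ChIP tags, which limits their ratios.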
